A study of Mus musculus with 6 samples.

Results

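Expression of 8 transcription factor genes linked to T cell exhaustion was followed: Tox, Tox2, Nr4a1, Nr4a2, Nr4a3, Batf, Maf and Nfil3. Members were the rows of the deposited table whose gene symbol was one of these names, and all 8 were found once each among 14750 rows. The data are RNA sequencing of CD8+ T cells taken from mouse spleen with an isolation kit after hematopoietic stem cell transplantation (HSCT), the replacement of a host's blood-forming cells by those of a donor. In the 3 allo-HSCT-labelled libraries the donor was C57BL/6 and the host Balb/c. In the 3 syn-HSCT-labelled libraries donor and host were both Balb/c. The strain field read Balb/c for all 6 libraries, and the time after transplantation, the age of the mice and whether each library came from a separate animal are not stated in the sources used here. P-values therefore rest on the spread among these 6 libraries alone, and that spread may be technical.

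Genes that differ between the strains went against the labels. H2-Ea-ps, an MHC class II gene active in Balb/c and silent in C57BL/6 mice, averaged 1955 FPKM in the allo-HSCT-labelled libraries and 4.76 FPKM in the syn-HSCT-labelled libraries, and Ly6a, a surface antigen gene more active in C57BL/6 T cells, averaged 28.6 FPKM under the allo-HSCT label and 332 FPKM under the syn-HSCT label. The library titles carry the letter S where the label reads allo-HSCT and the letter A where it reads syn-HSCT. Every direction below is therefore one between libraries as labelled, and donor strain and kind of transplantation cannot be told apart in this design. FPKM is the number of sequenced fragments scaled by the length of a gene's exons and by the library's total; fragment totals recovered from the values ran from 15154000 to 18715000 per library.

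Exhaustion is a state that CD8+ T cells enter under lasting antigen stimulation, in which they keep inhibitory receptors such as PD-1 on the surface and lose part of their effector function. Signals from the T cell receptor raise calcium and activate NFAT, which induces the NR4A nuclear receptors and TOX, a DNA-binding protein of the HMG-box class needed for exhausted cells to form in mice. BATF and MAF are basic leucine zipper factors that act with IRF4 and Blimp-1 in activated T cells, and NFIL3 is a leucine zipper repressor. All of these genes are also used by other cells: NR4A genes are immediate-early genes in many tissues, MAF is a macrophage factor, and NFIL3 is needed for NK cells.

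Of the 8 genes, 6 were lower in the allo-HSCT-labelled libraries, 1 (Nr4a1) was higher and 1 (Nr4a3) was not called. Calls are adjusted p under 0.05 by limma on log2(FPKM + 1), fitted over 12404 genes, and differences on this scale understate the change of low genes. Such calls were common in this comparison: 33.0% of all tested genes were called lower, 34.7% higher and 67.6% in either direction. The groups did not overlap for 7 of the 8 genes, against 72.3% of all tested genes. In bulk RNA, fewer cells of a type and less RNA per cell cannot be told apart. Read against that background, a call for 7 of 8 genes says little by itself, and the values of each gene carry the description. All 8 were tested, but Tox2 passed the expression filter (1 FPKM in 3 of 6 libraries) through the syn-HSCT-labelled libraries alone. Its direction and its lack of overlap were therefore fixed by the filter. As another scale, each library was divided by the geometric mean of its CD3 genes (Cd3d, Cd3e and Cd3g), which moved the median log2 difference of all tested genes to 0.42, from 0.01 as reported, and the share of calls that were higher to 85.8%, from 51.2%.

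**Figure D1:**
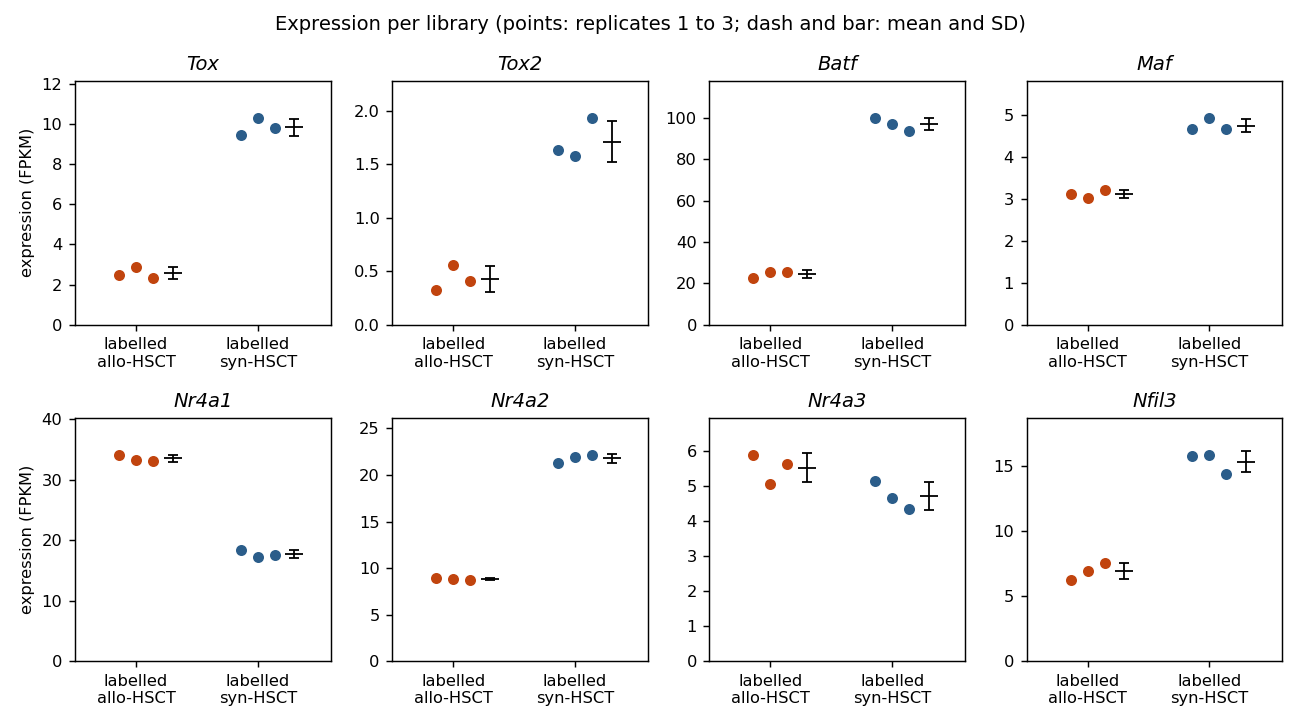
Expression of each gene in FPKM on a linear axis from 0, with 1 point per library, the 3 allo-HSCT-labelled libraries on the left of each panel and the 3 labelled syn-HSCT on the right, and a dash and bar for mean and SD. The points of the 2 groups overlap for Nr4a3 alone; Nr4a1 is the panel in which all 3 allo-HSCT-labelled libraries lie above the others.

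Tox (ENSMUSG00000041272, GRCm38 chromosome 4 from 6686353 to 6991557, minus strand) had 2.48, 2.89 and 2.32 FPKM in the allo-HSCT-labelled libraries, against 9.43, 10.3 and 9.80 FPKM in the syn-HSCT-labelled libraries. All 3 allo-HSCT-labelled libraries lay far below the lowest of the others. The means were 2.56 ± 0.293 FPKM under the allo-HSCT label and 9.84 ± 0.428 FPKM under the syn-HSCT label (SD, n = 3 each), 3.84-fold lower under the allo-HSCT label, with a log2 difference of -1.61 ± 0.07 (SE; limma adjusted p = 2.72e-06). An antisense gene, Gm11802, covers 3.42% of the bases of Tox exons, and the labels do not say whether reads were counted by strand.

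Tox2 (ENSMUSG00000074607, GRCm38 chromosome 2 from 163203125 to 163324170, plus strand) encodes a relative of TOX that acts beside it in exhausted CD8+ T cells of mice. It stood at 0.321, 0.557 and 0.407 FPKM in the allo-HSCT-labelled libraries and at 1.63, 1.58 and 1.93 FPKM in the syn-HSCT-labelled libraries. These values rest on 17, 31 and 21 recovered fragments under the allo-HSCT label and on 85, 97 and 123 fragments under the syn-HSCT label, so Tox2 was the most thinly covered of the 8 genes. The groups did not overlap, but the filter had fixed both this and the direction. The mean was 0.429 ± 0.12 FPKM in the allo-HSCT-labelled libraries against 1.71 ± 0.191 FPKM in the syn-HSCT-labelled libraries (SD, n = 3 each), with a log2 difference of -0.93 ± 0.10 (SE; limma adjusted p = 0.000197). That difference is damped by the added 1 FPKM: fitted to recovered fragments with limma's voom it was -2.01 ± 0.29 (SE; limma adjusted p = 7.08e-06).

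The share of Tox2 in the pair differed by less than the spread between libraries, while the level of the pair was lower. Summed FPKM of Tox and Tox2 was 2.80, 3.44 and 2.72 in the allo-HSCT-labelled libraries and 11.1, 11.9 and 11.7 in the syn-HSCT-labelled libraries. Tox2 made up 14.2% ± 2.46 of the sum in the allo-HSCT-labelled libraries and 14.8% ± 1.59 in the syn-HSCT-labelled libraries (SD, n = 3 each), a difference of -0.635 percentage points (two-sided exact permutation test, p = 0.7, and 0.7 after Benjamini-Hochberg adjustment over the 6 sums and shares tested in the TOX and NR4A families). The sign of this difference turned when 1 library was left out (from -1.63 to 0.739 percentage points over the 6 libraries).

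The NR4A genes encode 3 orphan nuclear receptors that bind the same DNA element. Their promoters are shown because the 3 genes gave 3 different results. The windows hold the 250 bases before the annotated start, from RefSeq on GRCm38.p6, in the direction of transcription, and capitals mark each TGACG or its reverse complement CGTCA, the core of the cAMP response element.
Nr4a1: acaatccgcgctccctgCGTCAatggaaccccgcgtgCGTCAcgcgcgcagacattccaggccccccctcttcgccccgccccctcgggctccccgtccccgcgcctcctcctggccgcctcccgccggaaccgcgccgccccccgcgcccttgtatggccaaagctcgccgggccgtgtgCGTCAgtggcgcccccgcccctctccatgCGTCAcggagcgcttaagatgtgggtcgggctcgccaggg
Nr4a2: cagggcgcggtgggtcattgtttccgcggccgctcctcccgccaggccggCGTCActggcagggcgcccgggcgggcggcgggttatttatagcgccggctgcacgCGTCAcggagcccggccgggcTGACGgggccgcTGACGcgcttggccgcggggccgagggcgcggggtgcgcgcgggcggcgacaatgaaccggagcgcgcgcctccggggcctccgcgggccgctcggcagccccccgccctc
Nr4a3: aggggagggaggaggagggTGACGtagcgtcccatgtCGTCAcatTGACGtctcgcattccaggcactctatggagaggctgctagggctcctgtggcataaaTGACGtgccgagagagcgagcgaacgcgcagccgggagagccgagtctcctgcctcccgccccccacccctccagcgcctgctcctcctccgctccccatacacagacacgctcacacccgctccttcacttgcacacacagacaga

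These windows lie at chr15:101266596-101266845 (plus strand) for Nr4a1, chr2:57124004-57124253 (minus strand) for Nr4a2 and chr4:48045055-48045304 (plus strand) for Nr4a3. Each held 4 cores, counted over both strands, and none overlapped another. The RefSeq starts used lie inside the gene spans given for Nr4a1 and Nr4a3 below. Their inner ends lay 228, 208, 64 and 35 bases before the start in Nr4a1, 195, 139, 118 and 106 bases in Nr4a2, and 226, 208, 200 and 142 bases in Nr4a3. At least 1 core was present in 17.8% of 32851 promoter windows of the same length and at least 4 in 0.137%. The full element TGACGTCA, found in 1.55% of all windows, was in none of the 3. Also sought on both strands were TGANTCA, the AP-1 site (in 6.75% of all windows), AAAGGTCA, the NR4A site (1.34%), TTACGTAA, the NFIL3 site (0.113%), and TGCTGA, the MAF core (16.1%), and none of these was in any window matched to the 8 genes. The windows are rich in G and C, at 74.4% for Nr4a1, 80.0% for Nr4a2 and 63.6% for Nr4a3, against a median of 52.4% over all windows. A match of letters is a description of the window and shows no binding. RefSeq entries were matched for 6 of the 8 genes, with no entry for Tox and Maf; the Batf and Nfil3 windows held 1 core each.

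Nr4a1 (ENSMUSG00000023034, GRCm38 chromosome 15 from 101254269 to 101274795, plus strand), the gene of NUR77 and a member rapidly induced by T cell receptor signals, had 34.1, 33.3 and 33.1 FPKM in the allo-HSCT-labelled libraries, against 18.4, 17.2 and 17.5 FPKM in the syn-HSCT-labelled libraries. The lowest allo-HSCT-labelled library exceeded the highest labelled syn-HSCT, and Nr4a1 was 1.89-fold higher, with a log2 difference of 0.88 ± 0.03 (SE; limma adjusted p = 1.24e-06). Nr4a2 (ENSMUSG00000026826, GRCm38 chromosome 2 from 57106830 to 57124003, minus strand), the gene of NURR1, had 8.94, 8.84 and 8.70 FPKM in the allo-HSCT-labelled libraries, against 21.2, 22.0 and 22.1 FPKM in the syn-HSCT-labelled libraries. It went the other way from Nr4a1, also without overlap, and was 2.47-fold lower in the allo-HSCT-labelled libraries (log2 difference -1.21 ± 0.03, SE; limma adjusted p = 2.79e-07).

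Nr4a3 (ENSMUSG00000028341, GRCm38 chromosome 4 from 48045153 to 48086447, plus strand), the gene of NOR1, had 5.88, 5.06 and 5.62 FPKM in the allo-HSCT-labelled libraries and 5.13, 4.67 and 4.33 FPKM in the syn-HSCT-labelled libraries. Replicate 2 labelled allo-HSCT lay below replicate 1 labelled syn-HSCT, so the groups overlapped. The log2 difference of 0.19 ± 0.08 (SE) was not called (limma adjusted p = 0.0627). Without replicate 2 labelled allo-HSCT the limma adjusted p was 0.0403, without replicate 1 labelled syn-HSCT it was 0.0372, and it ranged from 0.000254 to 0.574 over all 18 alternatives, with the same sign in each.

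The make-up of the NR4A family differed more than its summed level. Summed FPKM of the family was 48.9, 47.2 and 47.4 in the allo-HSCT-labelled libraries and 44.8, 43.8 and 44.0 in the syn-HSCT-labelled libraries, with means of 47.8 FPKM under the allo-HSCT label and 44.2 FPKM under the syn-HSCT label and no overlap (two-sided exact permutation test, p = 0.1, adjusted 0.15). Nr4a1 gave 70.0% ± 0.457 of the sum in the allo-HSCT-labelled libraries and 40.1% ± 0.974 in the syn-HSCT-labelled libraries (SD, n = 3 each). Nr4a2 gave 18.5% ± 0.253 under the allo-HSCT label and 49.3% ± 1.64 under the syn-HSCT label. Nr4a3 gave 11.5% ± 0.709 under the allo-HSCT label and 10.6% ± 0.799 under the syn-HSCT label. Nr4a1 was thus the most abundant member in every allo-HSCT-labelled library and Nr4a2 in every syn-HSCT-labelled library. The shares of Nr4a1 and Nr4a2 did not overlap between groups (two-sided exact permutation test, p = 0.1 for each, the smallest that 3 against 3 libraries can give, adjusted 0.15). For Nr4a3 the share overlapped (exact permutation p = 0.2, adjusted 0.24). Shares within a library do not depend on how libraries are scaled to each other.

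**Figure D2:**
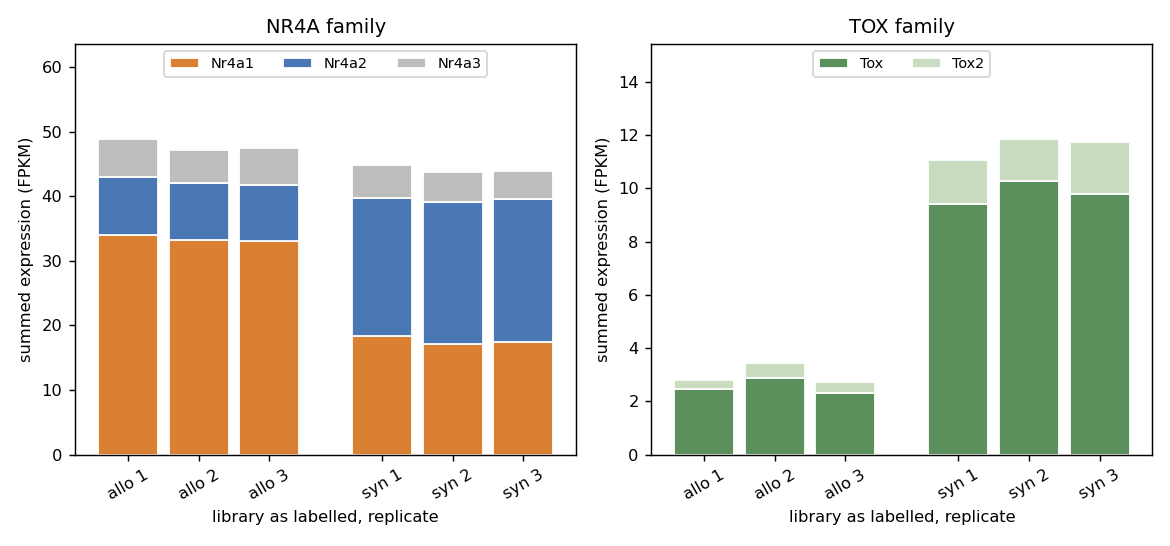
Stacked bars of FPKM per library, for Nr4a1, Nr4a2 and Nr4a3 on the left and Tox and Tox2 on the right, with the 3 allo-HSCT-labelled libraries before the 3 labelled syn-HSCT. Bars of the NR4A family are of similar height, between 43.8 and 48.9 FPKM, while Nr4a1 takes the larger part in one group and Nr4a2 in the other; bars of the TOX pair differ in height and keep similar proportions.

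Immediate-early genes, which are induced by receptor signals and also by tissue dissociation, were mostly higher beside Nr4a1. Of 21 immediate-early and dissociation genes, 18 were higher and 3 (Dusp2, Dnajb1 and Hsp90aa1) lower in the allo-HSCT-labelled libraries, with a median log2 difference of 1.07 against 0.01 over all tested genes; 2 of the 21 passed the expression filter through 1 group alone. After quantile normalization 17 were called higher and 1 lower. Relative to CD3 genes all 21 were higher, but that scale raises the median of all tested genes to 0.42. The largest differences were in Atf3, Fos and Fosb, all genes of AP-1 or related zipper factors. Atf3 was at 20.8 ± 2.47 FPKM under the allo-HSCT label and 0.492 ± 0.162 FPKM under the syn-HSCT label (SD, n = 3 each). It passed the expression filter through the allo-HSCT-labelled libraries alone, so its direction was fixed by the filter. Fos was at 139 ± 6.80 FPKM under the allo-HSCT label and 21.2 ± 0.256 FPKM under the syn-HSCT label. Fosb was at 46.9 ± 2.32 FPKM under the allo-HSCT label and 12.9 ± 0.355 FPKM under the syn-HSCT label. Egr1, which like Nr4a1 answers to receptor signals, was 2.15-fold higher. Nr4a2 went the other way from this list. The part of dissociation in the level of Nr4a1 was not tested.

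Batf (ENSMUSG00000034266, GRCm38 chromosome 12 from 85686669 to 85709087, plus strand) encodes a leucine zipper factor that pairs with JUN proteins and binds DNA together with IRF4 in activated T cells. It had 22.5, 25.7 and 25.7 FPKM in the allo-HSCT-labelled libraries, against 99.8, 97.2 and 93.7 FPKM in the syn-HSCT-labelled libraries. The groups were wide apart, and on the log2(FPKM + 1) scale Batf showed the largest absolute difference of the 8 genes, at -1.94 ± 0.06 (SE; limma adjusted p = 3.20e-07), a 3.93-fold lower level; 4.68% of all tested genes differed by more on that scale. With voom Tox2 differed slightly more, at -2.01, than Batf at -1.97. Irf4, the gene of its partner, was lower as well, at 4.31, 4.99 and 4.68 FPKM in the allo-HSCT-labelled libraries and 10.1, 10.6 and 11.0 FPKM in the syn-HSCT-labelled libraries (2.27-fold; limma adjusted p = 8.50e-06). Batf3, which encodes a close relative needed for cross-presenting dendritic cells, was at 17.02, 16.8 and 16.5 FPKM in the allo-HSCT-labelled libraries and 0.736, 0.658 and 0.636 FPKM in the syn-HSCT-labelled libraries. Batf3 passed the expression filter through the allo-HSCT-labelled libraries alone, so its direction was fixed by the filter.

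Of 9 genes listed as AP-1 and IRF partners, 8 were tested. Of these, 5 were higher, 1 (Irf4) was lower and 2 (Fosl2 and Jund) were not called in the allo-HSCT-labelled libraries. The median log2 difference was 1.31 against 0.01 over all tested genes. Relative to CD3 genes, a scale on which the median of all tested genes is 0.42, 7 of the 8 were higher and 1 lower. Fos, Fosb, Jun and Junb, all higher, were also counted among the immediate-early and dissociation genes, so the lists are not independent. Irf8, a factor of dendritic cells and B cells that can also pair with BATF, was the largest, at 162 ± 4.34 FPKM under the allo-HSCT label and 20.5 ± 1.10 FPKM under the syn-HSCT label (SD, n = 3 each). Junb, the gene of a JUN protein that pairs with BATF, was 2.12-fold higher, at 164 ± 1.62 FPKM under the allo-HSCT label and 77.4 ± 2.04 FPKM under the syn-HSCT label. Jund was at 47.6 FPKM under the allo-HSCT label and 46.7 FPKM under the syn-HSCT label, and Fosl2 at 4.46 FPKM under the allo-HSCT label and 4.17 FPKM under the syn-HSCT label.

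Maf (ENSMUSG00000055435, GRCm38 chromosome 8 from 115682942 to 115707794, minus strand) encodes c-MAF, which drives Il10 and, with Blimp-1, inhibitory receptor genes in mouse T cells. It had 3.13, 3.04 and 3.23 FPKM in the allo-HSCT-labelled libraries, against 4.68, 4.93 and 4.67 FPKM in the syn-HSCT-labelled libraries. The groups did not overlap, and the difference was the smallest among the called members, 1.52-fold lower in the allo-HSCT-labelled libraries (log2 difference -0.48 ± 0.06, SE; limma adjusted p = 0.000257). Relative to CD3 genes Maf was not called, at -0.09 (limma adjusted p = 0.207). The antisense gene Gm15655 covers 5.34% of the bases of Maf exons. Prdm1, the gene of Blimp-1, was lower as well, at 4.50, 5.62 and 4.86 FPKM in the allo-HSCT-labelled libraries and 14.9, 15.4 and 15.8 FPKM in the syn-HSCT-labelled libraries (3.08-fold; limma adjusted p = 4.07e-06).

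Nfil3 (ENSMUSG00000056749, GRCm38 chromosome 13 from 52967209 to 52981073, minus strand), whose product raises Havcr2 and Il10 in mouse helper T cells, had 6.28, 6.97 and 7.56 FPKM in the allo-HSCT-labelled libraries, against 15.8, 15.9 and 14.4 FPKM in the syn-HSCT-labelled libraries. All allo-HSCT-labelled libraries lay below the rest, and the level was 2.21-fold lower (log2 difference -1.04 ± 0.07, SE; limma adjusted p = 1.70e-05). The genes Dbp and Tef, whose products activate the sites that NFIL3 represses, were both higher, but Dbp passed the expression filter through the allo-HSCT-labelled libraries alone and so had to be. Dbp was at 1.37 FPKM under the allo-HSCT label and 0.389 FPKM under the syn-HSCT label, and Tef at 4.40 FPKM under the allo-HSCT label and 2.17 FPKM under the syn-HSCT label.

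Relatives of the 8 genes in the same families moved the other way from most of them. Of 13 such relatives, 9 had a row and 8 were tested, and all 8 tested were higher in the allo-HSCT-labelled libraries, with a median log2 difference of 0.88 against 0.01 over all tested genes. After quantile normalization they were also all higher. They were all higher relative to CD3 genes too, but that scale raises the median of all tested genes to 0.42. Of these 8, 4 passed the expression filter through the allo-HSCT-labelled libraries alone and so had to differ. Batf3 (3.41 ± 0.05, SE) and Maff, the gene of a small MAF partner, were among those that differed most. Maff was at 2.79 ± 0.427 FPKM under the allo-HSCT label and 0.444 ± 0.0618 FPKM under the syn-HSCT label (SD, n = 3 each). Tox4, a ubiquitous relative of Tox, differed least, at 19.1 FPKM under the allo-HSCT label and 16.4 FPKM under the syn-HSCT label (limma adjusted p = 0.00322).

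The order of expression also differed between groups. Per kilobase, the allo-HSCT-labelled libraries held Nr4a1 at 33.5 FPKM above Batf at 24.6, Nr4a2 at 8.83, Nfil3 at 6.94, Nr4a3 at 5.52, Maf at 3.13, Tox at 2.56 and Tox2 at 0.429 FPKM, and no neighbours in this order overlapped. In the syn-HSCT-labelled libraries the order was Batf at 96.9 FPKM, Nr4a2 at 21.8, Nr4a1 at 17.7, Nfil3 at 15.3, Tox at 9.84, Maf at 4.76, Nr4a3 at 4.71 and Tox2 at 1.71 FPKM, and among neighbours only Maf and Nr4a3 overlapped. Batf stood above 96.7% of the table's genes by its mean in the syn-HSCT-labelled libraries, and Tox2 above 4.51% by its mean in the allo-HSCT-labelled libraries.

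Input to these factors through calcium and NFAT showed small differences. Of 15 genes of this input, 4 were higher, 6 lower and 5 not called in the allo-HSCT-labelled libraries, with a median log2 difference of -0.06 against 0.01 over all tested genes. Relative to CD3 genes, where the median of all tested genes is 0.42, 12 were higher and 2 lower. Nfatc1, a calcium-regulated factor gene, had the largest difference of the list, at 26.3, 26.7 and 27.3 FPKM in the allo-HSCT-labelled libraries and 45.3, 44.9 and 44.9 FPKM in the syn-HSCT-labelled libraries (limma adjusted p = 7.18e-07). On the scale as reported, Calm3, a calmodulin gene, was 1.55-fold lower and Ppp3cb, a calcineurin gene, 1.32-fold lower. On that scale the calcineurin genes Ppp3r1 and Ppp3ca went the other way from Ppp3cb, with log2 differences of 0.19 each (limma adjusted p = 0.000294 for Ppp3r1 and 0.0218 for Ppp3ca), and Stim1, the gene of a calcium sensor of the endoplasmic reticulum, was higher by 0.13 (limma adjusted p = 0.0174). Nfatc2, at 15.2 FPKM in both groups, was not called (limma adjusted p = 0.939). Also not called was Rcan1, a calcineurin target, at 3.57 FPKM under the allo-HSCT label and 2.84 FPKM under the syn-HSCT label. Orai1, a calcium channel gene, and Stim2, the gene of another calcium sensor, were at 13.8 and 9.48 FPKM under the allo-HSCT label and 13.2 and 10.1 FPKM under the syn-HSCT label, and neither was called.

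Receptor and cytokine genes that these factors control in T cells, or that mark exhausted cells, were mostly lower. Of 12 receptor and cytokine target genes, 11 were tested, of which 8 were lower and 3 (Entpd1, Cd38 and Cd101) higher in the allo-HSCT-labelled libraries, with a median log2 difference of -1.47 against 0.01 over all tested genes, and the counts were the same relative to CD3 genes. Of these, 1 (Il10) passed the expression filter through the syn-HSCT-labelled libraries alone and so had to be lower. Pdcd1, which encodes PD-1, had the largest difference, at 8.42, 7.32 and 7.45 FPKM in the allo-HSCT-labelled libraries and 231, 226 and 236 FPKM in the syn-HSCT-labelled libraries. Ctla4 and Tigit, both inhibitory receptor genes, followed at -3.18 and -2.99 on the log2 scale. Havcr2, the gene of TIM-3 downstream of NFIL3, was 2.99-fold lower, and Il10, a target of MAF and NFIL3, averaged 0.262 ± 0.122 FPKM under the allo-HSCT label and 2.49 ± 0.309 FPKM under the syn-HSCT label (SD, n = 3 each).

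Other factors of the exhaustion and memory programmes moved in both directions. Of 12 tested, 5 were higher, 6 lower and 1 (Id2) not called in the allo-HSCT-labelled libraries, with a median log2 difference of -0.10 against 0.01 over all tested genes. Relative to CD3 genes, where the median of all tested genes is 0.42, 8 were higher and 3 lower. Of the 12, 2 passed the expression filter through 1 group alone. Tcf7, a factor gene of naive and stem-like cells, was 7.18-fold higher and Bhlhe40, a factor gene of activated T cells, 2.97-fold lower. Eomes, which encodes a T-box factor of memory cells, was at 40.1, 38.4 and 40.8 FPKM under the allo-HSCT label and 13.3, 12.5 and 12.9 FPKM under the syn-HSCT label. Id2 was at 211 FPKM under the allo-HSCT label and 217 FPKM under the syn-HSCT label. Eomes thus went the other way from Tox and Batf.

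**Figure D3:**
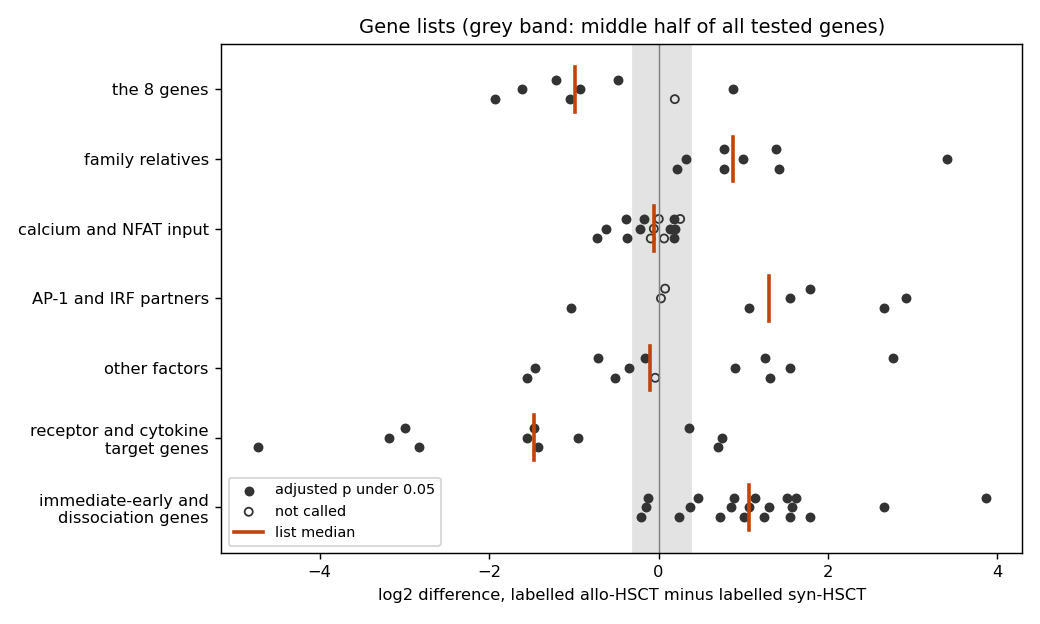
Log2 differences on the log2(FPKM + 1) scale, allo-HSCT-labelled libraries minus the syn-HSCT-labelled libraries, with 1 point per gene for the 8 genes and each list; filled points have a limma adjusted p under 0.05, bars are list medians, and the grey band spans the lower to the upper quartile of all tested genes. Most of the 8 genes and of the receptor and cytokine targets lie left of the band, while the tested family relatives lie right of the middle line.

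Markers of other cells also differed between the groups. All 10 macrophage and monocyte markers were higher in the allo-HSCT-labelled libraries, with summed levels of 341 to 343 FPKM under that label and 41.8 to 43.2 FPKM under the syn-HSCT label. Of 10 dendritic cell markers, 8 were tested and all 8 were higher, with sums of 436 to 463 FPKM under the allo-HSCT label and 76.5 to 81.0 FPKM under the syn-HSCT label, where Cd209a was at 0 in all libraries. Most of the dendritic sum under the syn-HSCT label was Itgax, at 66.1 FPKM there and 82.4 FPKM under the allo-HSCT label. Neutrophil markers were higher for 9 of 10 and summed to 1998 to 2115 FPKM under the allo-HSCT label and 95.3 to 104 FPKM under the syn-HSCT label. Some of these markers passed the expression filter through the allo-HSCT-labelled libraries alone and so had to be higher: 3 of the 10 macrophage and monocyte markers, 4 of the 8 dendritic cell markers and 3 of the 10 neutrophil markers. Of the B and plasma cell markers, 6 of 10 had a row and 3 of 4 tested were higher, with sums of 392 to 420 FPKM under the allo-HSCT label and 214 to 239 FPKM under the syn-HSCT label. All 5 erythroid markers with a row were higher, with sums of 60.3 to 75.4 FPKM under the allo-HSCT label and 1.65 to 1.79 FPKM under the syn-HSCT label, but 4 of the 5 passed the filter through the allo-HSCT-labelled libraries alone and so had to be. NK cell and CD4 T cell markers moved in both directions, with 2 of 5 and 2 of 4 tested higher and 3 and 2 lower. Among NK genes, Klrb1c passed the filter through the syn-HSCT-labelled libraries alone and so had to be lower. The NK list summed to 483 to 495 FPKM under the allo-HSCT label and 753 to 774 FPKM under the syn-HSCT label. Most of each NK sum was Nkg7, at 464 FPKM under the allo-HSCT label and 722 FPKM under the syn-HSCT label. Ncr1 went the other way, at 4.84 FPKM under the allo-HSCT label and 0.904 FPKM under the syn-HSCT label. The CD4 list summed to 25.6 to 27.7 FPKM under the allo-HSCT label and 25.1 to 25.4 FPKM under the syn-HSCT label. The part of these cells in the levels of the 8 genes was not tested.

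CD8 T cell markers were expressed in both groups, but most of them differed in level. Cd8b1 averaged 490 FPKM in the allo-HSCT-labelled libraries and 483 FPKM in the syn-HSCT-labelled libraries and was the 1 marker not called. Of 10 CD8 T cell markers, 8 were lower and 1 (Cd8a) higher in the allo-HSCT-labelled libraries, with sums of 2348 to 2498 FPKM under that label and 3115 to 3160 FPKM under the syn-HSCT label. The geometric mean of Cd3d, Cd3e and Cd3g was 88.9, 86.1 and 83.6 FPKM in the allo-HSCT-labelled libraries and 120, 122 and 119 FPKM in the syn-HSCT-labelled libraries. Under the allo-HSCT label Tox was 2.97% of this CD3 level, Nfil3 8.07%, Nr4a2 10.2%, Batf 28.6% and Nr4a1 38.9%. Under the syn-HSCT label Tox was 8.15% of it, Nfil3 12.7%, Nr4a2 18.1%, Batf 80.3% and Nr4a1 14.7%. Maf was nearly level on this scale, at 3.63% under the allo-HSCT label and 3.94% under the syn-HSCT label. Beyond the shift of 0.42 in the median of all genes that this division brings, Batf stood at -1.88, Tox at -1.63, Tox2 at -1.12, Nr4a2 at -1.18, Nfil3 at -1.03, Maf at -0.52, Nr4a3 at 0.17 and Nr4a1 at 0.93.

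**Figure D4:**
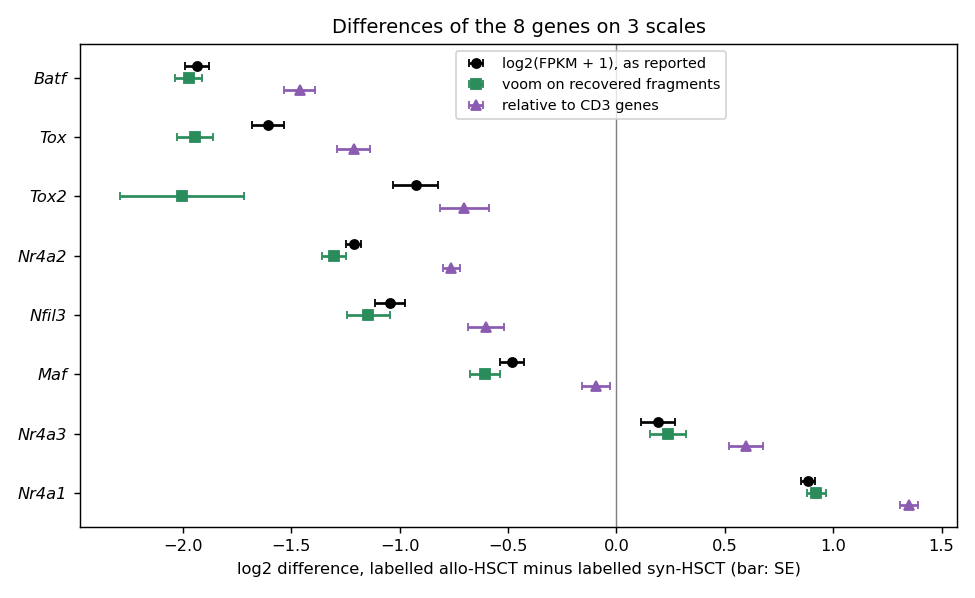
Log2 differences of the 8 genes, allo-HSCT-labelled libraries minus the syn-HSCT-labelled libraries, with SE bars, on the log2(FPKM + 1) scale as reported, with voom on recovered fragments, and after division by the CD3 genes of the same library. No gene changes sign on any of the 3 scales, Tox2 has the widest gap between the log2(FPKM + 1) scale and voom, and Maf comes nearest to 0 after division by CD3 genes.

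Genes with a like profile over the 6 libraries were sought by the root mean square difference between log2(FPKM + 1) values, each centred on the gene's own mean, among genes of similar mean level. Nearest to Batf were Icos, a costimulatory receptor gene, at 0.0835 and Rab27a, a gene of granule release, at 0.0942 log2 units. Cenpf, a kinetochore gene, and Ctps2, a gene of CTP synthesis, came nearest to Nr4a2 at 0.0182 and 0.0206. Mbp was near to Nr4a1 at 0.027. The nearest to Tox were Zfp52 at 0.0532 and Galnt3 at 0.058, and to Tox2 Ppp1r3e at 0.0602 and Eri2 at 0.0623. For Nfil3 they were Ncapg2, a condensin gene, at 0.0414 and Ndrg1 at 0.0415, for Maf Enpp4 at 0.0257 and Ccdc127 at 0.0327, and for Nr4a3 Rpain at 0.0292 and Rasal1 at 0.0321. With 6 libraries in 2 groups, these distances mostly describe the difference between the groups.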

How the data were processed

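The deposited table holds FPKM values made by the authors for 14750 genes in 6 libraries, in columns named by the library titles; its larger group mean was at least 0.5 FPKM for every gene. The unit was read from the values: multiplied by exon length in GENCODE vM21 (GRCm38), 94.0% to 94.5% of values above 0 in each library were whole fragments within 0.1, and all 8 genes were whole in every library. Ribosomal RNA was depleted, per the labels' protocols. Limma is listed, with no version, per the submitters' processing notes; genome build, aligner and counter are not stated in the sources used here.

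Genes reaching 1 FPKM in 3 or more of the 6 libraries entered limma 3.58.1 (R 4.3.3; eBayes with trend) on log2(FPKM + 1), with no covariates and Benjamini-Hochberg adjustment over all 12404 genes; the fit was tested on simulated data. Folds are ratios of mean FPKM. Members and lists were chosen with earlier results of these data known. Named were all members, fixed partner genes, in each list the 3 called genes of largest difference and those not called, and the 2 nearest profiles per member; marker, strain and other list genes named beside them were chosen after values were seen. Some genes that this rule names are not reported here. Alternatives left out each library, changed filter, pseudocount, scaling or variance model, added a replicate block, or used voom on recovered fragments; leaving out libraries for family shares was added after the data were seen.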

Additional observations from a re-analysis of the deposited data

How the results depend on the processing

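Tox, Tox2, Nr4a1, Nr4a2, Batf and Nfil3 kept direction and call under every alternative in which they were tested, and Maf under all but division by the CD3 genes (-0.094, limma adjusted p = 0.207). For Tox2 the filter at 1 FPKM had fixed the direction. A filter at 5 FPKM removed Tox2 and Maf. Nr4a3, not called as reported, was called relative to CD3 genes (0.60) and with voom (0.24), and ranged from 0.14 to 0.24 when single libraries were left out. On the CD3 scale the median of all genes was 0.42, and Nr4a3 stood 0.17 beyond it, against 0.19 as reported. The cause of the call with voom was not tested. Leaving out single libraries gave -1.67 to -1.56 for Tox, -1.97 to -1.88 for Batf, and -1.63 to 0.739 percentage points for the Tox2 share, which turned sign without replicate 1 labelled allo-HSCT or replicate 3 labelled syn-HSCT. Genes called higher and lower numbered 4298 and 4092 as reported, 8301 and 1374 relative to CD3 genes (85.8% of calls higher against 51.2%), 2817 and 3248 with a filter at 5 FPKM, where 8075 genes were tested (46.4% higher), and 3742 and 4790 after quantile normalization (43.9% higher). Deviations of same-numbered libraries from their group means had correlations of 0.0627, 0.122 and -0.083. These values showed no pairing by number, but 3 libraries per group cannot exclude it. With the replicate block 4164 genes were called higher and 3949 lower, and no call among the 8 genes changed (Nr4a3: limma adjusted p = 0.0638). Tox2, with 17 to 31 fragments per allo-HSCT-labelled library, is the gene whose size of change depth limits most.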
